A study of Mus musculus with 20 samples.

Results

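Fatty acid synthesis in the fetal mouse lung was followed through 9 genes: Acly and Me1, Acaca and Fasn, Elovl6 and Elovl1, Scd1 and Scd2, and Srebf1. All probe sets of the array whose only gene symbol is one of these were taken, which gave 20 of 22690 probe sets. They stand for 9 of the 12393 genes that a probe set names alone. The rule uses no measured value, but the 9 genes were chosen with earlier results of these data known. Shares of members called are therefore descriptions. Of the 20 probe sets, 17 from 8 genes lay above a log2 value of 4 in at least 5 of the 20 arrays and were tested. The other 3 lay below 4 in all 20 arrays, a range called dim here, and are given as values. They are the single Acaca probe set and 2 of the 5 Acly probe sets. Where a gene has several probe sets they are numbered from the brightest down, and levels of different probe sets are not compared with each other.

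RNA of whole left lobes from C57Bl6 embryos was read on Affymetrix Mouse430A_2 arrays, with 1 animal on each array and 4 groups of 5 animals. Controls at E16.5 and E18.5 (days after mating) are labelled GR flox, which names a floxed gene for the glucocorticoid receptor (GR, Nr3c1), and keep GR in mesenchymal cells. Mutants at the same ages, labelled GRCol1-Cre, also carry Cre on a bacterial artificial chromosome with the locus of the collagen I alpha 2 gene and lack GR in mesenchymal cells. The whole lobe was extracted, so epithelial, endothelial and blood cells, in which the receptor was not targeted, contribute to every value. In whole tissue, fewer cells of a type and less RNA per cell cannot be told apart.

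Fatty acids are built in the cytosol from citrate. Acly splits citrate into acetyl-CoA, Acaca turns it into malonyl-CoA, Fasn assembles palmitate from these with NADPH that Me1 and other enzymes supply, elongases lengthen the chain and stearoyl-CoA desaturases place a double bond in it. The transcription factor SREBP1, encoded by Srebf1, activates genes along the whole route. In the lung near term, type II epithelial cells use palmitate for the phosphatidylcholine of surfactant, and lipid-storing fibroblasts of the mesenchyme are a source of lipid for them.

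Nr3c1 was lower in the mutants at both ages, by a log2 difference of -1.72 at E16.5 (SE 0.17, limma adjusted p = 1.95e-05) and -1.62 at E18.5 (SE 0.17, adjusted p = 1.81e-06). It ranged from 8.58 to 9.15 in E16.5 controls and 6.31 to 7.50 in E16.5 mutants, and from 9.02 to 9.57 in E18.5 controls and 7.56 to 8.05 in E18.5 mutants. An E18.5 control array stands apart from its group. On a line from the E16.5 control mean (0) to the E18.5 control mean (1), computed over all tested probe sets and leaving the placed array out of the means, E18.5 control replicate 3 lay at 0.70, whereas the other E18.5 controls lay at 1.02 to 1.10. The E18.5 mutants lay at 0.45 to 0.76, with replicates 3 and 5 at the upper end. E16.5 control replicate 5 lay at 0.22, and the other E16.5 controls at -0.09 to 0.04. The summed blood marker signal of E18.5 control replicate 3 was 12.96 on the log2 scale, against 11.13 to 11.64 in the other E18.5 controls. Counts of calls among the members, list counts at E18.5 and several member differences are therefore given with and without this array. Changes of single genes with age, single genes of the lists and most marker lists are given with it only. Judged from Xist against Y-linked transcripts, females made up 1 of 5 E16.5 controls, 5 of 5 E16.5 mutants, 3 of 5 E18.5 controls and 2 of 5 E18.5 mutants. Sex and genotype can therefore hardly be told apart at E16.5, which also bears on each test of a difference between the ages.

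Between E16.5 and E18.5 most of the tested member genes rose in controls. The desaturases Scd1 and Scd2, the elongase Elovl1, fatty acid synthase, Srebf1 and malic enzyme rose, with Scd1 rising most, whereas the elongase Elovl6 fell. Acly rose in set 2 and was not called in sets 1 and 3, and Acaca was dim. Of the 17 tested probe sets, 13 rose and 2 fell, against 32.0% and 36.6% of all 12517 probe sets tested, and 68.6% of all were called in either direction (limma with Benjamini-Hochberg adjustment over all of them, called at an adjusted p under 0.05). In 14 of the 17 the 5 animals of one age did not overlap those of the other, against 49.2% of all. The median change over the 17 was 0.93 on the log2 scale, against -0.05 over all tested. Without E18.5 control replicate 3, 13 rose and 2 fell, with 69.6% of all probe sets tested called in either direction.

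In the mutants 12 probe sets rose and 2 fell with age, against 25.1% and 29.2% of all probe sets tested, with 54.3% called in either direction. The ages did not overlap in 13 of the 17, against 40.2% of all. The median change was 0.64, against -0.03 over all tested. The mutant and control changes come from different animals, so they can be read side by side, and the test of their difference is the comparison of the mutant effects at the 2 ages given beside each gene.

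**Figure D1:**
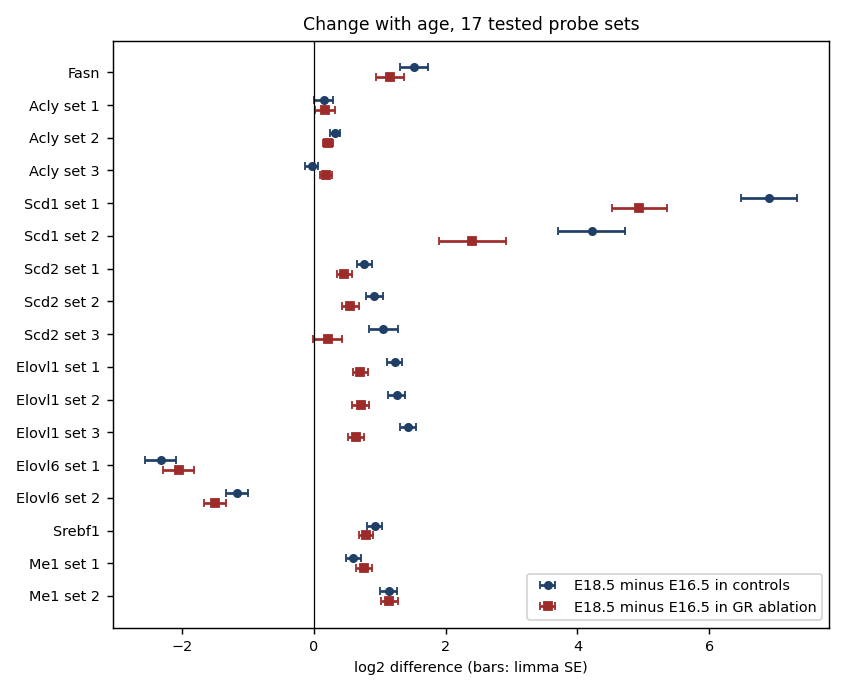
Change of the 17 tested probe sets from E16.5 to E18.5, as log2 difference on the horizontal axis, in controls (circles) and GR ablation mutants (squares), with limma standard errors as bars. Scd1 set 1 changed most, by 6.91 in controls and 4.94 in mutants, and both Elovl6 probe sets lie left of 0.

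In the E18.5 mutants Scd1, Scd2 and Elovl1 were lower than in controls, and none of the other 5 tested genes was called. All 8 probe sets of these 3 genes fell and none of the 17 rose, against 14.4% of all probe sets called lower and 16.8% called higher, 31.1% in all. Probe sets of the same gene are not separate members. By gene, 3 of 8 were called, all lower, against 33.5% of all 8068 genes called and 15.5% called lower. The share of genes called is thus near that of all genes. Over the 17 the median difference was -0.36, against 0.03 over all tested. Only 1 of the 17, Elovl1 set 3, had all 5 mutants below all 5 controls, whereas 16.1% of all tested probe sets had groups that did not overlap. Without E18.5 control replicate 3 the same 8 were called lower and Elovl6 set 1 was called higher, 9 of 17 against 38.0% of all probe sets tested.

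At E16.5 none of the 17 was called, against 0.200% of all probe sets tested, and the adjusted p was 1.00 for each of them in limma. The smallest unadjusted p was that of Elovl6 set 2, whose mutants were 0.38 higher (SE 0.17), and it is the 1 probe set of the 17 with an unadjusted p under 0.05. The median difference over the 17 was 0.02. A direct test of whether the mutant effect differed between the ages called 1 of the 17, Elovl1 set 3, against 6.62% of all called and 3.84% called lower. Without E18.5 control replicate 3 it called 8 of 17, those of Scd1, Scd2 and Elovl1, against 15.2% of all, and 1 of the 8, Scd1 set 2, was dim in every E16.5 animal.

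**Figure D2:**
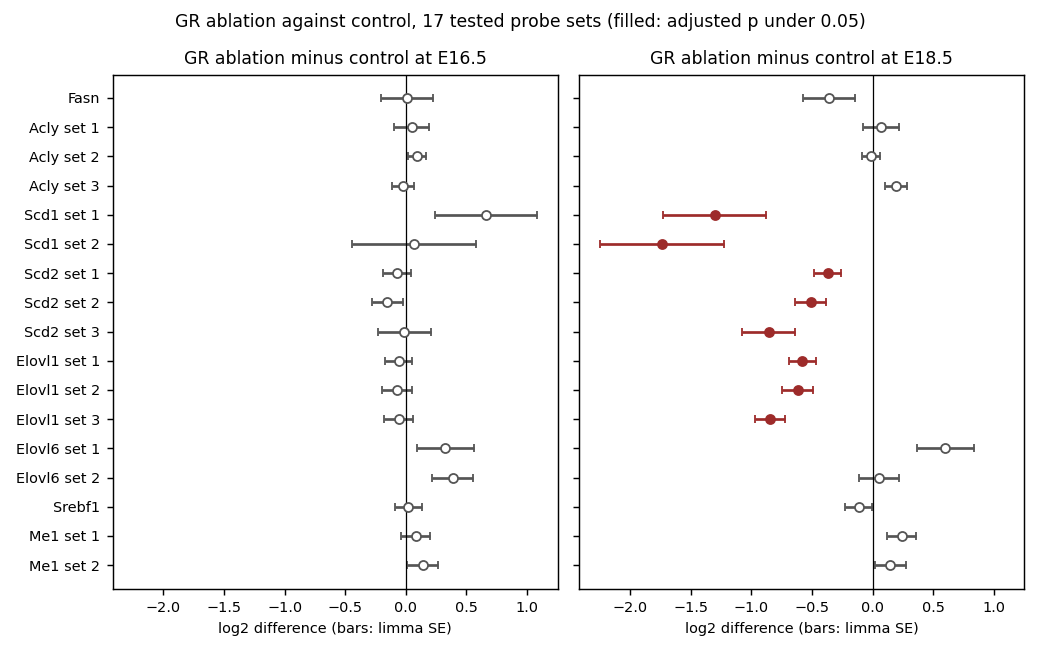
Log2 difference between GR ablation and control for the 17 tested probe sets at E16.5 (left) and E18.5 (right), with limma standard errors as bars and filled points where the adjusted p was under 0.05. At E16.5 no point is filled, and at E18.5 the 8 filled points are the probe sets of Scd1, Scd2 and Elovl1, all left of 0.

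Acly and Me1, the members that feed the pathway, were not called between genotypes at either age. For Acly, which makes cytosolic acetyl-CoA, probe set 1 (1439459_x_at) had group means of 11.12 ± 0.27 (SD, n = 5) in E16.5 controls, 11.17 ± 0.23 in E16.5 mutants, 11.27 ± 0.19 in E18.5 controls and 11.34 ± 0.26 in E18.5 mutants. All 4 groups overlapped. The name ending of set 1 marks probes that can also bind other transcripts, and set 1 stands for Acly where 1 value per gene is used. Set 2 (1451666_at) rose with age by 0.32 in controls (SE 0.08, adjusted p = 0.000931) and by 0.22 in mutants (adjusted p = 0.0200), the latter a call lost without E16.5 mutant replicate 2 (0.20, adjusted p = 0.0503). Set 3 (1425326_at) ranged from 7.76 to 8.21 in E16.5 controls and from 7.88 to 8.09 in E18.5 controls and was not called with age in controls. In mutants it was 0.18 higher at E18.5 (adjusted p = 0.106) and was called without E18.5 mutant replicate 3 (0.23, adjusted p = 0.0453). The mutant differences at E18.5 were 0.07, -0.01 and 0.19 in sets 1 to 3 (adjusted p = 0.753, 0.923 and 0.125). Sets 4 and 5 were dim, at 2.89 to 3.24 and 2.39 to 2.58 over the 20 arrays.

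Me1, the cytosolic malic enzyme that yields NADPH, rose with age in both genotypes. Set 1 (1430307_a_at) read 8.01, 7.48, 7.88, 7.85 and 7.70 in E16.5 controls and 8.34, 8.34, 8.59, 8.21 and 8.46 in E18.5 controls. It read 7.97, 7.62, 8.01, 7.62 and 8.11 in E16.5 mutants and 8.76, 8.56, 8.65, 8.34 and 8.83 in E18.5 mutants. The ages did not overlap in either genotype, and the rise was 0.60 in controls (SE 0.12, adjusted p = 0.000184) and 0.76 in mutants (SE 0.12, adjusted p = 3.55e-05). In set 2 (1416632_at) the rise was 1.14 and 1.15. At E18.5 the mutants were 0.24 higher in set 1 (SE 0.12, adjusted p = 0.133) and 0.15 higher in set 2 (adjusted p = 0.415), differences that were not called. With arrays weighted by their quality, set 1 was called (0.29, adjusted p = 0.0390).

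Acaca, acetyl-CoA carboxylase 1, supplies the malonyl-CoA for chain building. Its single probe set (1427595_at) read 1.97 to 2.07 over the 20 arrays, well inside the dim range in every group, so these arrays give no measure of it. Acacb, the mitochondrial form, was dim as well, at 2.06 to 2.12.

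Fasn, fatty acid synthase, rose with age in controls and mutants. Its single probe set (1423828_at) read 9.10, 9.09, 9.45, 9.44 and 10.07 in E16.5 controls and 11.15, 11.20, 10.41, 10.80 and 11.22 in E18.5 controls. In mutants it read 9.19, 9.46, 9.47, 9.38 and 9.68 at E16.5 and 10.26, 10.42, 11.06, 10.13 and 11.10 at E18.5. Every E18.5 animal lay above every E16.5 animal, and within E18.5 the genotypes overlapped, with mutant replicates 3 and 5 among the controls and control replicate 3 among the mutants. The rise was 1.53 in controls (SE 0.21, adjusted p = 3.98e-06), a factor of 2.88, and 1.16 in mutants (SE 0.21, adjusted p = 0.000183). At E18.5 the mutant difference was -0.36 (SE 0.21, adjusted p = 0.211), 77.8% of the control level, and did not pass. Without E18.5 control replicate 3 it was -0.50 (adjusted p = 0.0703). The mutant effect did not pass the test of a difference between ages either (-0.37, SE 0.30, adjusted p = 0.505).

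The RefSeq promoter of Fasn is shown because its letters hold a motif that it shares with Srebf1 and few other genes. Promoter windows of 250 bases before to 50 after the start were found in RefSeq (GRCm38.p6) for 7 of the 9 genes, 11 windows in all, and none was found for Scd1 and Scd2. Both strands were searched for the sterol element TCACNCCAC (1.24% of 32851 windows), the NF-Y box CCAAT (37.4%), the E-box CACGTG (7.15%), the GC box GGGCGG (35.7%), the glucocorticoid response element (GNACA and TGTNC with 3 bases between them, 0.475%) and an element of GGTTACT and CGG with 2 bases between them. The last is a form of the element that liver X receptors (LXR) bind, and it was chosen after these sequences were read. It is present in 9 windows, or 0.0274%, those of Abca1, Gm20636, Cnot4, Hpx, Icosl, Srebf1, Fasn, Golm1 and Wdfy2. No member window holds the sterol element, the E-box or the glucocorticoid element in these letters. In the Fasn window, at chr11:120824498-120824797 on the minus strand, capitals mark the LXR element on its reverse strand, at -222 to -211 from the start, and 3 NF-Y boxes, of which the last 2 share 2 bases. A match is a description of the letters.
Fasn promoter: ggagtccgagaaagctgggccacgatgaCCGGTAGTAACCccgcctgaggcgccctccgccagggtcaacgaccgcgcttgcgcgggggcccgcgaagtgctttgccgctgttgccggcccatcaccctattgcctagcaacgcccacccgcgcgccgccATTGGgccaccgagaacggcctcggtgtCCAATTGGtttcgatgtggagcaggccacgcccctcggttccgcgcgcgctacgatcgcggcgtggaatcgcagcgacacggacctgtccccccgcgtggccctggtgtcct

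The elongases moved in opposite directions with age. Elovl6, which lengthens palmitate to stearate, fell, and Elovl1, which lengthens saturated and monounsaturated chains further, rose. Elovl6 set 1 (1417404_at) read 8.24, 7.67, 7.76, 7.86 and 7.52 in E16.5 controls and 5.19, 4.92, 6.10, 5.39 and 5.84 in E18.5 controls. In mutants it read 8.22, 8.26, 8.08, 8.24 and 7.87 at E16.5 and 6.65, 6.24, 6.01, 6.32 and 5.20 at E18.5. All E18.5 animals lay below all E16.5 animals, with the lowest control at 4.92 and the highest mutant at 6.65. The fall was -2.32 in controls (SE 0.23, adjusted p = 7.27e-08) and -2.05 in mutants (SE 0.23, adjusted p = 1.47e-06). Set 2 (1417403_at) fell by 1.17 in controls (adjusted p = 4.89e-06) and also fell in mutants (adjusted p = 1.11e-06), to E18.5 values of 3.59 to 4.26 in controls and 3.57 to 4.21 in mutants that are mostly dim, so dim values bound the size of its fall.

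At E18.5 the mutants were 0.60 higher in Elovl6 set 1 (SE 0.23, adjusted p = 0.0596), which did not pass, and 0.05 higher in set 2 (adjusted p = 0.839). Mutants 1, 2 and 4 lay above all 5 controls in set 1, and mutant 5 lay among the lowest controls. Set 1 passed without E18.5 control replicate 3 (0.75, adjusted p = 0.0156), without mutant replicate 5 (0.82, adjusted p = 0.00493) and with arrays weighted by quality (0.60, adjusted p = 0.0296). At E16.5 its difference was 0.32 and was not called, and the test of the difference between the ages gave 0.27 (adjusted p = 0.675).

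Elovl1 rose with age and fell in the E18.5 mutants in all 3 probe sets. Set 3 (1425676_a_at) read 8.57, 8.18, 8.27, 8.41 and 8.05 in E16.5 controls and 8.41, 8.19, 8.15, 8.16 and 8.27 in E16.5 mutants. It read 9.73, 9.61, 9.61, 9.87 and 9.78 in E18.5 controls and 8.76, 8.64, 9.29, 8.58 and 9.10 in E18.5 mutants. The E16.5 genotypes overlapped, all E18.5 mutants lay above all E16.5 animals, and all E18.5 controls lay above all E18.5 mutants. The difference at E18.5 was -0.85 (SE 0.12, adjusted p = 5.40e-05), which left 55.5% of the control level. The mutant effect was larger at E18.5 than at E16.5 by -0.79 (SE 0.17, adjusted p = 0.0106). The rise with age was 1.43 in controls (SE 0.12, adjusted p = 1.02e-08) and 0.64 in mutants (SE 0.12, adjusted p = 0.000258).

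Sets 1 and 2 of Elovl1 (1456530_x_at and 1455994_x_at) carry a name ending that marks probes that can also bind other transcripts. Set 1 read 11.25, 11.32, 10.97, 11.37 and 11.33 in E18.5 controls and 10.54, 10.54, 11.06, 10.33 and 10.85 in E18.5 mutants. Control replicate 3, the lowest control, lay below mutant replicate 3, the highest mutant. The mutant differences at E18.5 were -0.58 in set 1 (SE 0.11, adjusted p = 0.000698) and -0.62 in set 2 (SE 0.12, adjusted p = 0.00112). Without control replicate 3 the E18.5 differences were -0.65, -0.69 and -0.88 in sets 1 to 3, all called. At E16.5 the differences of all 3 sets lay between -0.07 and -0.06 and were not called. The tests of the difference between ages gave -0.52 in set 1 (adjusted p = 0.0512) and -0.55 in set 2 (adjusted p = 0.0672). Set 1 passed this test without E18.5 control replicate 3 (-0.59, adjusted p = 0.0122), without E16.5 control replicate 5 (-0.54, 0.0483) and without E18.5 mutant replicates 3 (-0.62, 0.00807) or 5 (-0.57, 0.0313). Set 2 passed it without E18.5 control replicate 3 (-0.62, adjusted p = 0.0196) or E18.5 mutant replicates 3 (-0.66, 0.0109) or 5 (-0.61, 0.0354).

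The Elovl1 promoter is shown beside that of Fasn as the promoter of the member with the call at E18.5 that held in all 3 probe sets without any single array. The first of its 2 RefSeq windows, chr4:118427843-118428142 on the plus strand, holds 5 GC boxes and 1 NF-Y box, in capitals, and no LXR element. One GC box shares 2 bases with the NF-Y box.
Elovl1 promoter: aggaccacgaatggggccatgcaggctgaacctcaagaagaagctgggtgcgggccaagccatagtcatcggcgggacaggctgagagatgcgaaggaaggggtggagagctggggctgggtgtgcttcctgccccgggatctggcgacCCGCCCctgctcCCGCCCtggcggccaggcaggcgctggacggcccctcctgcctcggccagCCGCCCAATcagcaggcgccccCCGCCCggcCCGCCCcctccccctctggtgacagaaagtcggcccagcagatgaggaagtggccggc

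Scd1, a stearoyl-CoA desaturase, had the largest changes among the tested members, both with age and at E18.5. Scd1 set 1 (1415964_at) read 5.18, 5.60, 4.79, 6.09 and 6.37 in E16.5 controls and 12.86, 12.83, 11.28, 12.66 and 12.93 in E18.5 controls. In mutants it read 6.54, 5.95, 6.13, 6.11 and 6.63 at E16.5 and 10.86, 10.83, 12.49, 9.86 and 12.01 at E18.5. The ages were far apart in both genotypes, and at E18.5 the genotypes overlapped: mutant replicates 3 and 5 lay above control replicate 3 and below the other 4 controls. With age it rose by 6.91 in controls (SE 0.42, adjusted p = 3.62e-10) and by 4.94 in mutants (SE 0.42, adjusted p = 9.45e-08). Set 2 (1415965_at) was dim in every E16.5 animal, at 2.92 to 3.08. At E18.5 it read 7.90, 7.57, 5.31, 7.27 and 7.74 in controls and 3.79, 5.06, 7.32, 4.64 and 6.29 in mutants, so dim values bound the size of its rises, 4.21 in controls and 2.41 in mutants.

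At E18.5 Scd1 was lower in the mutants by -1.30 in set 1 (SE 0.42, adjusted p = 0.0243), 40.5% of the control level, and by -1.74 in set 2 (SE 0.51, adjusted p = 0.0146), 29.9% of it. The spread among the mutants was large, with an SD of 1.04 in set 1 and 1.39 in set 2 (n = 5). Set 1 lost its call without E18.5 control replicates 1 (-1.22, adjusted p = 0.0597), 2 (-1.23, 0.0565) or 5 (-1.20, 0.0617) or without mutant replicates 1 (-1.22, 0.0554), 2 (-1.21, 0.0597) or 4 (-0.97, 0.0807). Without control replicate 3 the difference was -1.61 (adjusted p = 0.00438) in set 1 and -2.20 (adjusted p = 0.000970) in set 2. When the spread was estimated from the E18.5 arrays alone, both sets lost their calls (adjusted p = 0.0722 and 0.0823). At E16.5 the mutant difference was 0.66 in set 1 (SE 0.42) and was not called. The test of the difference between the ages gave -1.97 (SE 0.60, adjusted p = 0.0527) in set 1. Set 1 passed it without E18.5 control replicate 3 (-2.27, adjusted p = 0.00967), E16.5 control replicate 5 (-2.16, 0.0329) or E18.5 mutant replicates 3 (-2.29, 0.0149) or 5 (-2.17, 0.0288). For set 2, dim in all E16.5 animals, this difference only restates the one at E18.5, with or without any array, and its calls in counts of this test carry no more than that.

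Scd2, the desaturase isoform encoded near Scd1 on chromosome 19, rose with age and fell in the E18.5 mutants as well. In the RefSeq gene order Scd2 and Scd1 are separated by Mir5114 and Scd4. Scd2 set 2 (1415823_at) averaged 10.04 ± 0.16 (SD, n = 5) among the controls of E16.5 and 9.89 ± 0.11 among the mutants of that age. At E18.5 it read 11.15, 10.99, 10.45, 11.04 and 11.15 in controls and 10.51, 10.15, 10.73, 10.29 and 10.53 in mutants. Mutant replicates 1, 3 and 5 lay above control replicate 3 and below the other 4 controls. The mutant difference at E18.5 was -0.51 (SE 0.13, adjusted p = 0.00527) in set 2, 70.1% of the control level, -0.37 (SE 0.11, adjusted p = 0.0184) in set 1 (1415822_at) and -0.86 (SE 0.22, adjusted p = 0.00598) in set 3 (1415824_at). Set 1 lost its call without E18.5 control replicates 1 (-0.31, adjusted p = 0.0599) or 5 (-0.34, 0.0515) or mutant replicate 4 (-0.34, 0.0516). Without control replicate 3 the differences were -0.48, -0.64 and -1.01 in sets 1 to 3, all called.

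With age, the 3 Scd2 sets rose by 0.76, 0.92 and 1.06 in controls. In mutants sets 1 and 2 rose by 0.46 (adjusted p = 0.00226) and 0.56 (adjusted p = 0.00124), and set 3 differed by 0.21 (adjusted p = 0.428) and was not called. The mutant effect did not pass the test of a difference between the ages in sets 1 to 3 (-0.30, -0.36 and -0.85, adjusted p = 0.277, 0.242 and 0.101). All 3 passed it without E18.5 control replicate 3 (adjusted p = 0.0430, 0.0309 and 0.0271, with -0.41 and -0.48 in sets 1 and 2).

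**Figure D3:**
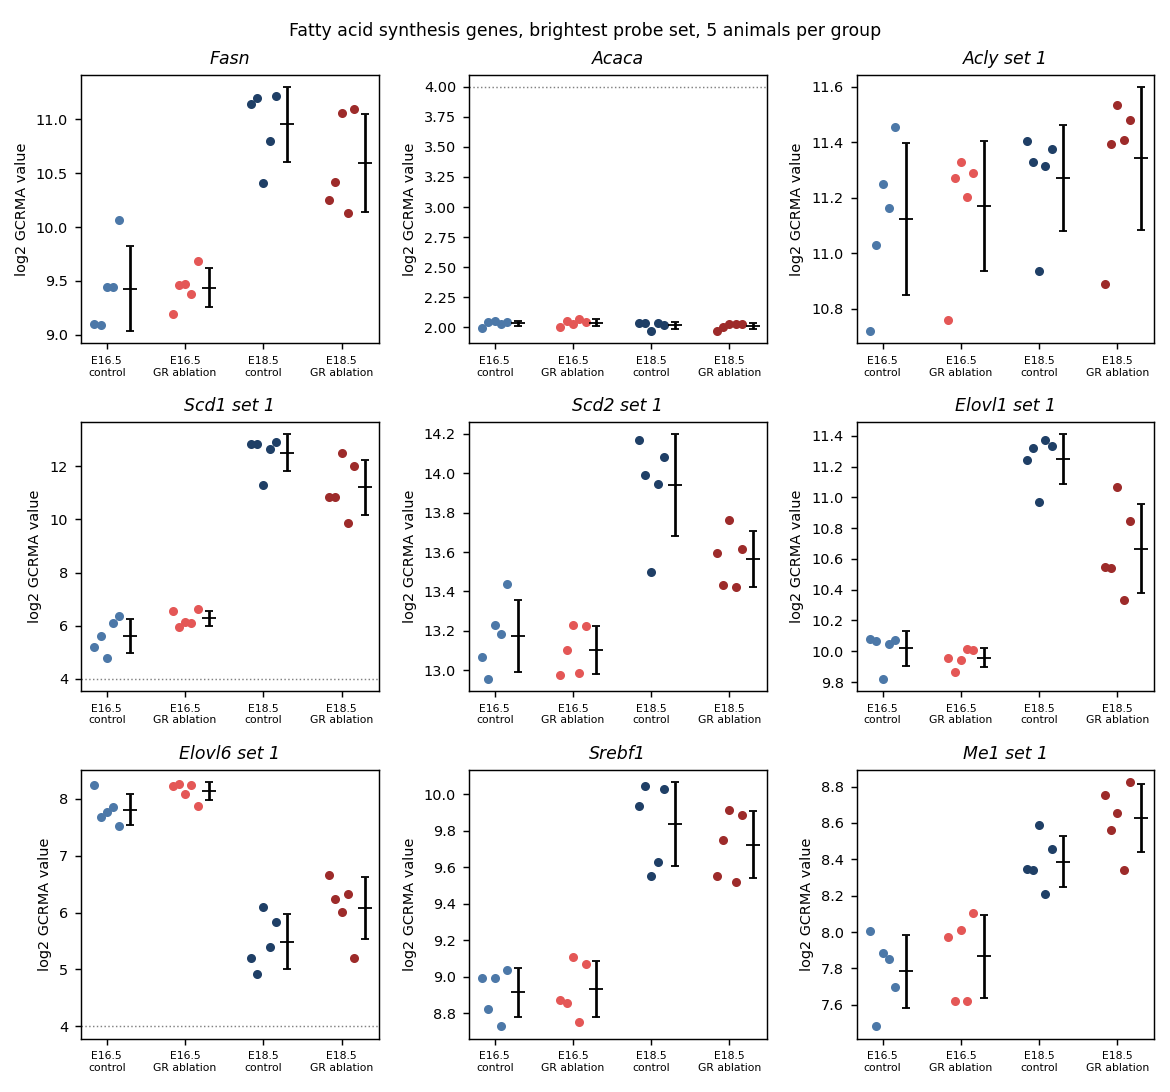
Log2 values of the brightest probe set of each of the 9 genes in every animal, with the mean and SD of each group of 5 beside the points. Dotted lines mark the log2 value of 4 where it falls in the panel. Acaca lies at 1.97 to 2.07 throughout, Elovl6 falls with age, and Scd1 shows the widest gap between ages.

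Srebf1, the regulator, rose with age and was not called between genotypes. Its single probe set (1426690_a_at) read 8.99, 8.82, 8.99, 8.73 and 9.04 in E16.5 controls and 9.94, 10.04, 9.55, 9.63 and 10.03 in E18.5 controls. In mutants it read 8.87, 8.85, 9.11, 8.75 and 9.07 at E16.5 and 9.55, 9.75, 9.92, 9.52 and 9.89 at E18.5. The ages did not overlap and the genotypes overlapped at both ages. The rise was 0.93 in controls (SE 0.11, adjusted p = 6.47e-07) and 0.79 in mutants (SE 0.11, adjusted p = 1.18e-05). At E18.5 the mutant difference was -0.11 (SE 0.11, adjusted p = 0.466), 92.4% of the control level, and -0.18 (adjusted p = 0.194) without E18.5 control replicate 3. The array does not separate the isoforms of SREBP1, and its regulated cleavage is not seen in RNA.

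Srebf1 has 3 RefSeq windows, and the third is shown because it holds the LXR element on the reverse strand at 2 places, -179 to -168 and -128 to -117 from the start. It lies at chr11:60210422-60210721 on the minus strand, and capitals also mark 2 GC boxes and 1 NF-Y box.
Srebf1 promoter: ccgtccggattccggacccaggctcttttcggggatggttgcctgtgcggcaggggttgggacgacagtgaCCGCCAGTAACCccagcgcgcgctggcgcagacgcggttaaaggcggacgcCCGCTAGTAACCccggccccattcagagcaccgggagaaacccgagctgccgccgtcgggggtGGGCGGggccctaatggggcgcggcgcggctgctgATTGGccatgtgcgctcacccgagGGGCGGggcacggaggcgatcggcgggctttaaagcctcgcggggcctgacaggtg

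Within the E18.5 groups many members placed the animals in a like order. Of the 13 probe sets that rose with age in controls, control replicate 3 was the lowest control in 10, and mutant replicates 3 and 5 were the highest 2 mutants in 10. These are the same 3 animals whose arrays lie at 0.70, 0.76 and 0.76 on the line between the ages over all probe sets. The part of stage position in the member differences was not tested.

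**Figure D4:**
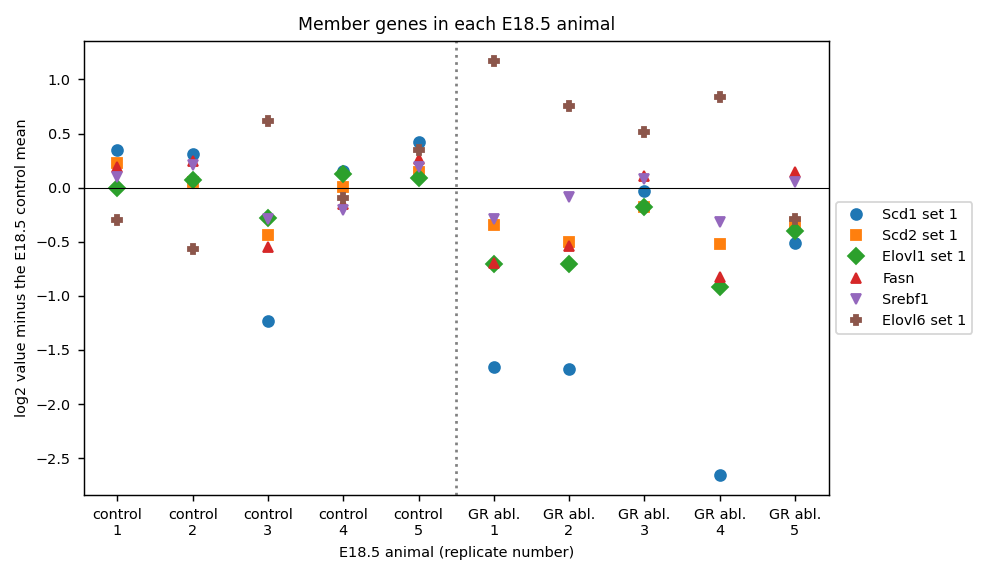
Log2 value minus the E18.5 control mean for the brightest probe sets of 6 members in each of the 10 E18.5 animals. Control replicate 3 lies below the other controls for Scd1, Scd2, Elovl1, Fasn and Srebf1, and mutant replicates 3 and 5 lie closest to the control mean for Scd1, at 12.49 and 12.01 against a control mean of 12.51.

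The genes with the most similar patterns were found from the root mean square log2 difference over the 20 arrays, after centring each gene on its mean, among 8060 other genes. The closest to Scd1 were the water channel Aqp5 (0.449) and the club cell secretoglobin Scgb1a1 (0.548), against an SD of 3.07 for Scd1 itself over the arrays. Elovl1 was closest to Cavin2 (0.0999) and Herpud1 (0.110), Scd2 to Myadm (0.0979), followed by Arhgef12, and Fasn to Myo1d (0.191) and the cholesterol transporter Npc1 (0.195). Srebf1 was closest to Stard3 (0.117) and Tmbim6 (0.117), and Me1 to the lysosomal protease Ctsb (0.140) and Pld3 (0.154). Elovl6 was closest to the cell cycle genes Skp2 (0.312) and Trip13 (0.319), and Acly to Fam91a1 (0.0885) and Fbxo11 (0.0992). These are descriptions over the same 20 animals, which share age and genotype.

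Related genes of lipid metabolism were taken from 7 lists, with 1 value per gene from its brightest probe set. Among all 8068 genes tested, 18.0% were called higher and 15.5% lower at E18.5, 33.5% in all, and the median difference was 0.03. Without E18.5 control replicate 3, 38.0% of all probe sets were called at E18.5, against 31.1% with it. List and marker counts without this array are to be read beside that larger share. Of 15 tested enzymes of elongation and desaturation other than the members, 3 rose and 6 fell in the E18.5 mutants, with a median of -0.17. The polyunsaturated elongase Elovl2 rose by 0.53 (SE 0.19, adjusted p = 0.0435), from E18.5 control values that are dim, and the desaturases Fads2 and Fads1 rose by 0.41 (SE 0.13, adjusted p = 0.0192) and 0.18 (SE 0.06, adjusted p = 0.0323). Cytochrome b5 (Cyb5a), the electron donor of the desaturases, differed by -0.38 (SE 0.08, adjusted p = 0.00104), and Fads3 and the elongase Elovl5 by -0.37 each (adjusted p = 0.00763 and 0.00301), all called lower. Leaving out E18.5 control replicate 3, 1 rose and 7 fell.

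Within this list the desaturase Fads2 fell with age in controls and the elongase Elovl5 rose. Fads2 read 7.81, 7.36, 7.59, 7.38 and 7.34 in E16.5 controls and 6.34, 6.54, 6.24, 6.81 and 6.58 in E18.5 controls, a fall of -0.99 (adjusted p = 1.33e-06). In E18.5 mutants it ranged from 6.61 to 7.32. Elovl5 read 10.36, 10.27, 10.27, 10.36 and 10.72 in E16.5 controls and 11.45, 11.37, 11.28, 11.36 and 11.48 in E18.5 controls, a rise of 0.99 (adjusted p = 8.98e-09), and 11.14, 10.91, 11.07, 10.91 and 11.08 in E18.5 mutants. All 5 mutants lay below all 5 controls in Elovl5, whereas Fads2 overlapped. Over the list 7 genes rose and 5 fell with age in controls, against 35.2% and 35.3% of all genes tested.

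Among 12 tested regulators, no gene rose and 3 fell in the E18.5 mutants (median -0.21). Nr1h3, which encodes LXR alpha, an oxysterol receptor known to act on Srebf1, read 6.54, 6.68, 5.66, 6.70 and 6.99 in E18.5 controls and 5.12, 5.03, 6.08, 5.46 and 5.83 in E18.5 mutants. Control replicate 3 lay among the mutants, and the difference was -1.01 (SE 0.24, adjusted p = 0.00401), 49.7% of the control level. Lpin1, a phosphatidate phosphatase and coregulator, differed by -1.19 (SE 0.28, adjusted p = 0.00335), and Mlx, the partner of the carbohydrate-responsive factor, by -0.32 (SE 0.08, adjusted p = 0.00497), both called lower. Srebf2, the sterol paralog of Srebf1, differed by -0.30 (adjusted p = 0.0759) and was not called. With age in controls 6 rose and 1 fell, Nr1h3 by 2.16 (SE 0.24, adjusted p = 2.56e-07). In the mutants Nr1h3 rose by 1.49 with age (adjusted p = 5.06e-05). Leaving out E18.5 control replicate 3, 4 regulators fell at E18.5 and none rose.

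Of 11 genes that supply acetyl-CoA and NADPH, 1 rose and 1 fell at E18.5 (median 0.04): transketolase Tkt by 0.36 (adjusted p = 0.00658) and isocitrate dehydrogenase Idh1 by -0.30 (adjusted p = 0.00685). Of 8 genes of malonyl-CoA control and carrier enzymes, 1 fell (median -0.03), the AMP kinase subunit Prkab1, by -0.47 (adjusted p = 0.00287). Thrsp, a lipogenic protein of this list, was dim at 2.52 to 3.01. With E18.5 control replicate 3 left out, 2 rose and 1 fell in the supply list, and 1 rose and 2 fell in the malonyl-CoA list. With age in controls 4 rose and 5 fell in the supply list, and 3 rose and 1 fell in the malonyl-CoA list.

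Of 12 uptake and activation genes 1 rose and 3 fell (median -0.26): the thioesterase Acot1 by 0.25 (adjusted p = 0.0128), and the transporter Cd36 by -1.12 (SE 0.37, adjusted p = 0.0262), the binding protein Fabp5 by -0.78 (SE 0.22, adjusted p = 0.0126) and lipoprotein lipase Lpl by -0.68 (SE 0.14, adjusted p = 0.00150). Of 13 genes of phosphatidylcholine synthesis and remodelling none rose and 5 fell (median -0.24), with the acyltransferases Gpam at -0.64 (SE 0.19, adjusted p = 0.0153) and Agpat3 at -0.51 (SE 0.10, adjusted p = 0.000660) and the rate-limiting Pcyt1a at -0.48 (SE 0.11, adjusted p = 0.00251). Of 18 oxidation genes none rose and 2 fell (median -0.01), the thiolase Acaa2 at -0.41 (adjusted p = 0.000179) and the dehydrogenase Acadm at -0.38 (adjusted p = 0.00406). Cpt1a, the entry step of oxidation, differed by -0.34 (adjusted p = 0.0820) and was not called. With E18.5 control replicate 3 left out, 1 rose and 3 fell in uptake, 4 fell in phosphatidylcholine synthesis, and 1 rose and 3 fell in oxidation.

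With age in controls, 9 of 12 uptake genes and 11 of 13 phosphatidylcholine genes rose, and 2 of the 13 fell. Of the 18 oxidation genes 6 rose and 2 fell. At E16.5, 1 of the 18 oxidation genes and no gene of the other lists was called between genotypes, against 0.211% of all genes. It was Acaa2, by -0.35 (SE 0.07, limma adjusted p = 0.0232), with mutants at 9.90 to 10.10 and controls at 10.24 to 10.45. In the test of the difference between ages 5 genes passed, all lower, against 4.18% of all genes called lower. Of 15 genes of elongation and desaturation, 2 passed, Hacd1 (-0.36) and Cyb5a (-0.36). So did 1 of 12 regulators, Mlx (-0.41), 1 of 12 uptake genes, Lpl (-0.87), and 1 of 13 phosphatidylcholine genes, Agpat3 (-0.49). None of the 11 supply, 8 malonyl-CoA and 18 oxidation genes passed. No test set these shares against that of all genes. These 5 were named after their values were seen.

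**Figure D5:**
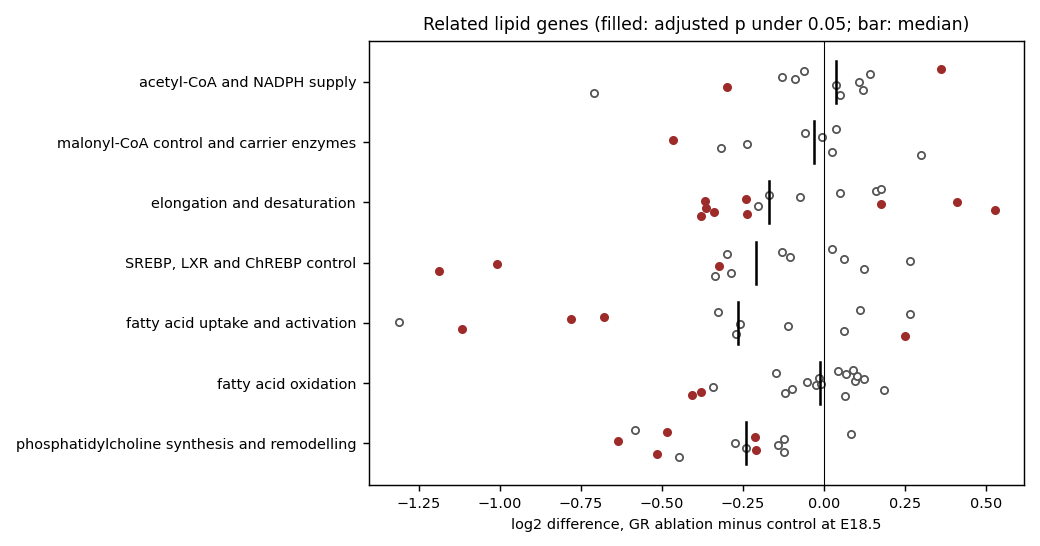
Log2 difference between GR ablation and control at E18.5 for the tested genes of 7 lists of lipid metabolism, 1 point per gene, filled where the adjusted p was under 0.05, with the median of each list as a bar. Elongation and desaturation has filled points on both sides of 0 (3 higher and 6 lower), and phosphatidylcholine synthesis has 5, all lower.

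Markers of the cell types in the lobe moved with some of these results. Of 10 type II cell markers, 1 was called at E18.5, Etv5 (0.59, higher), with a median of -0.37 over the list. The 9 not called all had lower means in mutants, from -1.23 in Sftpd (limma adjusted p = 0.0555) to -0.04 in Sftpc. Without E18.5 control replicate 3, 1 of the 10 was called higher and 1 lower, with a median of -0.41. The log2 of their summed signal was 16.30 to 16.55 in E18.5 controls and 15.97 to 16.40 in E18.5 mutants, against 14.88 to 15.40 and 14.83 to 15.28 at E16.5. None of the 10 was dim in all arrays, so the defining markers of the labelled tissue were present. Of 5 lung epithelium markers 2 were higher (Epcam 0.85 and Foxa2 0.26) and 1 lower (Krt8 -0.48), with sums of 13.83 to 14.08 in controls and 13.71 to 13.89 in mutants, and Nkx2-1 was dim in all arrays. Of 9 mesenchyme markers 2 were lower (Pdgfra and Tcf21), with sums of 15.65 to 15.93 in controls and 15.43 to 15.63 in mutants. Of 5 lipofibroblast markers 2 were lower (Lpl and Tcf21), with sums of 14.20 to 14.32 in controls and 13.42 to 13.79 in mutants. The sums of the genotypes did not overlap at E18.5 for the mesenchyme, lipofibroblast, endothelium and blood lists.

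The other lists are given for E18.5 in the same order. Of 5 endothelial markers 3 were lower, with sums of 12.04 to 12.38 in controls and 11.75 to 11.99 in mutants. Of 3 tested blood markers 2 were lower, with sums of 11.13 to 12.96 and 10.33 to 10.88, and Hba-a1 was dim. Of 5 macrophage markers 1 was lower, Lyz2 (-1.24), with sums of 12.33 to 13.57 and 11.30 to 12.97. All 6 fat tissue markers were dim in all arrays. Of 8 liver markers 5 were dim and the 2 tested were not called. The part of cell type shares in the member differences was not tested.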

How the data were processed

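The deposited values were log2 signals that the authors had made with GCRMA, per the submitters' processing notes (version not given in the sources used here). Array medians lay between 5.70 and 5.87, no further normalization was applied, and replicate number limits the precision. The members and the lists were chosen with earlier results of these data known. Probe sets above log2 4 in at least 5 of 20 arrays were fitted together with limma 3.58.1 (lmFit and eBayes, R 4.3.3), with 4 group means and 5 contrasts, and p-values were adjusted by Benjamini-Hochberg over all 12517 probe sets. Counts of genes (8068) use the brightest probe set of each gene in that fit. Figures used matplotlib 3.10.9. Simulated data for the E18.5 comparison had 12517 probe sets with independent normal noise and 100 changes of each of 2 sizes. There 53% of changes of log2 0.5 and 90% of changes of log2 1 were recovered, and 5.3% of calls were false. In the real comparison 31.1% of probe sets were called and stage position differed between arrays, so these shares do not carry over to it.

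Text names all 9 genes, up to 3 called genes with the largest change in each direction per list at E18.5, the 2 most similar genes per member, and Srebf2, Nr1h3, Thrsp, Fads1, Fads2, Elovl5, Acacb and Cpt1a. Insig1 and Slc25a1 were not analysed here. Alternatives covered the filter, normalization, variance model, array weights, sex, replicate number, threshold, probe set choice and each array left out. Replicate numbers were not used to pair animals, since nothing in the labels says what equal numbers share. List counts without E18.5 control replicate 3 were added after seeing the data.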

Additional observations from a re-analysis of the deposited data

Results flagged for a closer look

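Among 68 groups of 5 values, 7 held an animal that stood apart from the others by Dixon's gap-to-range ratio at the 95% level, and chance gives about 1 in 20 groups. Of the 7, 4 are E18.5 control replicate 3, which was lowest at 11.3 for Scd1 set 1 (others 12.66 to 12.93), 5.31 for Scd1 set 2 (7.27 to 7.90) and 10.5 for Scd2 set 2 (10.99 to 11.15). It was lowest for Acly set 1 as well, at 10.9 (11.32 to 11.41). For the same Acly set, replicate 1 was lowest at both ages in the mutants, at 10.8 at E16.5 (11.20 to 11.33) and at 10.9 at E18.5 (11.40 to 11.53). E16.5 control replicate 3 was lowest for Elovl1 set 1, at 9.82 (10.05 to 10.08). The mutant effect on Elovl1 set 3 differed between the ages by -0.789 (limma adjusted p = 0.0106).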

How the results depend on the processing

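Of 2563 member results under the alternatives, 2514 kept their side of the threshold, 17 lost a call, 32 gained one and 0 reversed a called direction. Among the 2514, 54 values without a call changed sign. With 1 probe set per gene, 3 of 8 genes were called at E18.5 (34.5% of all genes). With age, 7 were called in controls (70.9%) and 7 in mutants (56.2%). For the difference between the ages 2 were called in limma (8.4% of all genes), Scd1 (adjusted p = 0.0480) and Elovl1 (adjusted p = 0.0460). Why these 2 gained a call was not tested. At an adjusted p under 0.01, 5 probe sets were called at E18.5 (18.0% of all) and 0 of 17 (1.97% of all) for the difference between the ages in limma (6 had an unadjusted p under 0.05). For that difference, 3 were called with a trended, robust variance (7.80% of all probe sets) and 8 with array weights (23.9%, against 6.62% without them), and the cause was not tested. Leaving out each array in turn gave 0 calls at E16.5 (0.128% to 0.248% of all probe sets) and 6 to 9 at E18.5 (24.2% to 38.0%). With age it gave 15 in controls (65.2% to 69.7%) and 13 to 15 in mutants (48.7% to 56.8%). For the difference it gave 1 to 8 (3.88% to 15.2%). It gave 8 without E18.5 control replicate 3 (15.2%) and 3 without E16.5 control replicate 5 (9.26%). Without E18.5 mutant replicates 3 and 5 it gave 5 and 4 (9.66% and 9.9%). With the replicate number as a replicate block, 0, 8, 15, 14 and 1 were called, as without it. The shares of all probe sets were 0.184%, 33.5%, 69.8%, 55.5% and 7.71%. Same-numbered animals correlated at -0.08 to 0.59 at E16.5 (4 of 5 best with their own number) and -0.42 to 0.22 at E18.5 (0 of 5). Not every pair exceeded 0.1 (4 of 5 at E16.5 and 1 of 5 at E18.5), so the numbers were not taken to pair animals, and what they share is not known. When sex was a covariate, 9 of all 12517 probe sets were called between genotypes at E16.5, against 25 without it. For the difference between the ages 525 were called, against 828 without it. Dim values limit Acaca, Scd1 set 2 at E16.5 and Elovl6 set 2 at E18.5.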
